A study of Mus musculus with 6 samples.

Results

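The genes described here are NRF2 itself (gene symbol Nfe2l2), its repressor Keap1 and 8 antioxidant genes that NRF2 is known to drive or that work beside its targets: Nqo1, Hmox1, Gclc, Gclm, Gsr, Txnrd1, Srxn1 and Cat. The set was listed by name, and each gene was read from the array feature that carries its symbol alone, the brightest such feature where there were several. Of the 10 genes, 8 had a feature of their own, 1 each, among the 16755 features of the array. The features of Gclm and Txnrd1 carry a second gene symbol as well, so those 2 genes were not analysed here.

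The muscles were tibialis anterior, the fast muscle in front of the shin, from 3 mice with a muscle-specific knockout of the transcription factor ATF4 (ATF4 mKO) and from 3 littermate controls. All 6 mice were males of 8 weeks and had gone without food for 24 h. The promoter that drives the deletion in muscle, the exons removed and the strain are not given in the sources used here. Each array held the RNA of 1 mouse, and the values are log2 expression values, so a difference of 1 is a doubling. A whole muscle also holds vessel, blood and connective tissue cells, in which a muscle-specific deletion leaves Atf4 in place, and fewer cells of a type cannot be told apart from less RNA per cell.

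NRF2 is a leucine zipper protein that KEAP1 holds in the cytoplasm and hands to a CUL3 ubiquitin ligase for destruction. Oxidants and electrophiles modify cysteines of KEAP1, NRF2 then escapes, enters the nucleus, pairs with a small MAF protein and binds antioxidant response elements. Its targets make glutathione, recycle the oxidised forms of glutathione and thioredoxin, break down heme and detoxify quinones. ATF4 belongs to the same class of zipper proteins and is known for driving amino acid supply, including the uptake and synthesis of cysteine, from which glutathione is made. The comparison addresses whether the mRNAs of this redox system depend on ATF4 in fasted muscle.

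Both kinds of element can be seen in promoter sequence, shown here for the letters by which NRF2 and ATF4 are known to find their targets. Sequences are from RefSeq (build GRCm38.p6), read 5′ to 3′ on the strand of the gene, and they cover part of the 250 bases before a transcription start. Capitals mark matches on either strand to the core of the antioxidant response element, TGACNNNGC or its variant TGAGNNNGC, to the AP-1 letters TGAGTCA, which can overlap that variant, or to the ATF4-C/EBP letters TGATGCAA. The Nfe2l2 stretch lies at chr2:75704854-75704913 (minus strand), the Srxn1 stretch at chr2:152105354-152105493 (plus strand) and that of Slc7a11, the cystine transporter gene known as a target of both factors, at chr3:50443644-50443723 (minus strand).
Nfe2l2: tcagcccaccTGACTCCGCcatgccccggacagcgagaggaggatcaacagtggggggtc
Srxn1: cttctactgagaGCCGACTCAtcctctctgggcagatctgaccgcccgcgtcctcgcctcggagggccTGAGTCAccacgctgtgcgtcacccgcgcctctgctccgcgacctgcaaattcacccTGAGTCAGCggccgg
Slc7a11: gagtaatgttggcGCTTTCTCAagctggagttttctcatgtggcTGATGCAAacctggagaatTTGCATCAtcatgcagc
The Nfe2l2 stretch holds 1 match to the element core, Srxn1 holds 2 matches to the variant and 2 to the AP-1 letters, 1 of them inside a variant match, and Slc7a11 holds 1 variant match and 2 ATF4-C/EBP matches. Of 32851 RefSeq promoter windows of the same 250 bases, 10.2% held the element core, 14.4% its variant, 4.46% the AP-1 letters and 0.791% the ATF4-C/EBP letters. The window of Gclm and 1 of the 3 windows of Txnrd1 held the element core. The windows of Keap1, Nqo1 and Cat held none of the 4 in these 250 bases, and sequence farther out was not searched. Those of Hmox1, Gclc and Gsr were not used here. A match is a stretch of letters and not a measured binding site.

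The genotype check came from Atf4, whose feature read 6.73, 7.07 and 6.97 in the ATF4 mKO muscles, against 8.65, 8.77 and 8.76 in the controls. That is 28.7% of the control signal (log2 fold change -1.80 ± 0.10, SE; limma adjusted p = 0.00268 over all features). Fast-fibre markers checked the tissue: 10 of the 12 listed were measured, all above the array's median level, and their summed linear signal was 39728 to 40778 in ATF4 mKO and 39076 to 40400 in control muscles. The array medians lay between 5.84 and 5.91. Over the whole array 2 features passed the threshold, an adjusted p under 0.05 in limma with Benjamini-Hochberg adjustment, and both were lower.

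None of the 8 measured NRF2 and glutathione redox genes passed the threshold in either direction, where 0.0119% of all features did. At an unadjusted p under 0.05 the count was also 0 of 8, against 3.09% of all features. Their log2 fold changes ran from -0.11 for Nfe2l2 to 0.054 for Cat, with standard errors of 0.072 to 0.13, and 6 of the 8 were below 0. The median was -0.039, against 0.0013 over all features, and the median size of the difference without its sign was 0.050, against 0.063 over all features. On the array as a whole 74.3% of features differed by no more than the largest difference among the 8. All 8 had an adjusted p of 0.9999 in limma, and over 13 alternatives the adjusted p of these genes lay between 0.9979 and 1.0. Such values were not particular to the 8: Gpx4, described below, had 0.9999 at an unadjusted limma p of 0.0321.

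**Figure D1:**
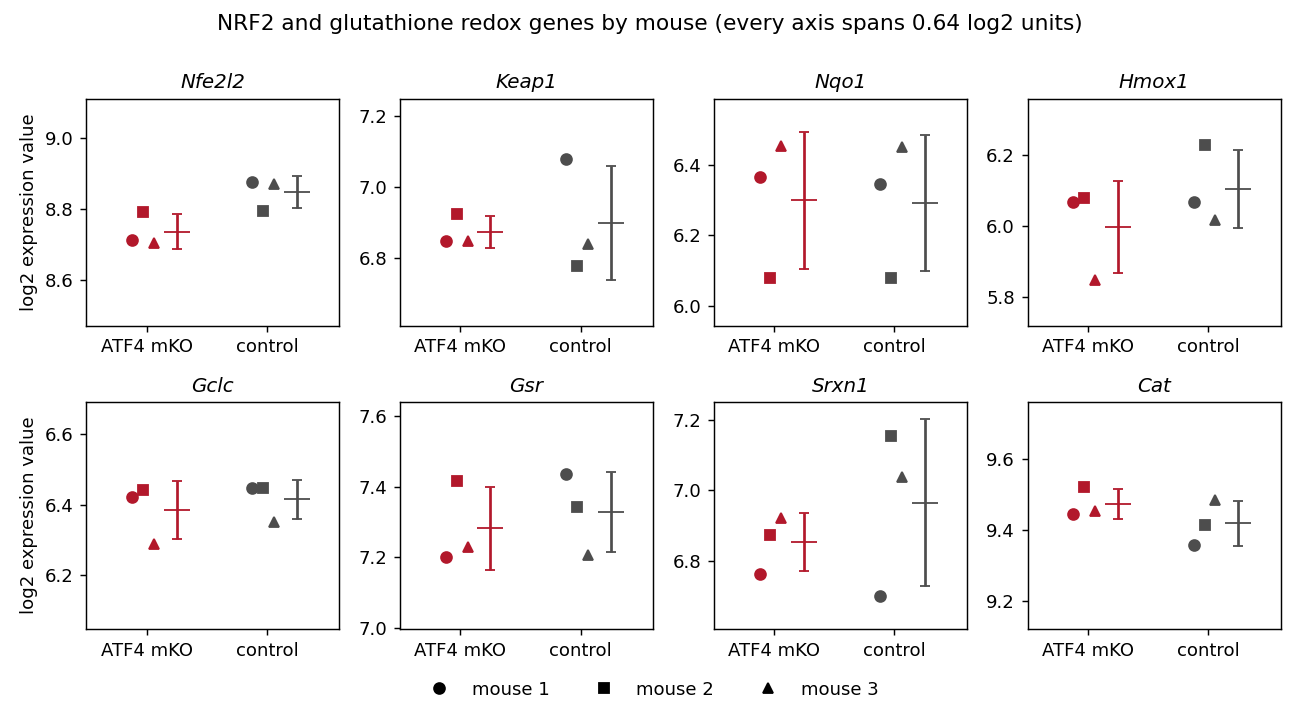
Log2 expression value of each measured NRF2 and glutathione redox gene in every mouse, ATF4 mKO in red on the left and control in grey on the right, with symbols for mouse number and a bar for the mean ± SD of 3 mice. The groups overlap for 7 of the 8 genes; for Nfe2l2 the highest ATF4 mKO value, 8.793, lies just under the lowest control value, 8.795.

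Nfe2l2, the transcription factor of the pathway, was the 1 gene of the 8 whose groups did not overlap, as at 7.78% of all features in either direction. It read 8.712, 8.793 and 8.704 in the ATF4 mKO muscles and 8.877, 8.795 and 8.872 in the controls. ATF4 mKO mouse 2 and control mouse 2 nearly met, 0.0015 apart, while the other mice of each group lay close together. The mean was 8.74 ± 0.05 in ATF4 mKO and 8.85 ± 0.05 in control muscle (SD, n = 3 each), which is 92.6% of control with a 95% interval of 82.4% to 104%. The limma p was 0.160 before adjustment. An exact two-sided permutation test gave 0.10, the smallest that 3 against 3 mice allow. Any groups of 3 without overlap give that value, so it adds nothing to the lack of overlap. Lower groups without overlap occurred at 3.89% of all features, and the separation of Nfe2l2 ended when each array was centred on its median: the highest ATF4 mKO value then lay above the lowest control value, a gap of -0.014, against 0.0424 after quantile normalisation.

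The 6 values of Nfe2l2, centred on their mean, spanned 0.173 in all. The 3 genes with the most similar centred values were Oxsr1, Saraf and Tmem87b, which differed from Nfe2l2 by a root mean square of 0.0156, 0.0162 and 0.0170 over the 6 mice. Oxsr1 encodes a kinase of the oxidative stress and osmotic stress responses, and Saraf a regulator of store-operated calcium entry. Their log2 fold changes were -0.12, -0.099 and -0.098, and none passed the threshold. The measure of likeness includes the group difference, so fold changes near that of Nfe2l2 follow from the choice. Likeness over 6 mice is a description of these arrays.

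Keap1, the adaptor that marks NRF2 for destruction, showed no shift against its spread. It read 6.85, 6.92 and 6.85 in ATF4 mKO and 7.08, 6.78 and 6.84 in control muscles. The 3 ATF4 mKO values all fell inside the range of the controls, whose first mouse stood above the rest. The log2 fold change was -0.025 (95% interval -0.25 to 0.20), or 98.3% of control, and it became 0.066 without control mouse 1.

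Among the glutathione enzymes, Gclc encodes the catalytic subunit of glutamate-cysteine ligase, the rate-limiting step of glutathione synthesis. Its values were 6.42, 6.44 and 6.29 in ATF4 mKO and 6.45, 6.45 and 6.35 in control muscles. The third mouse was the lowest of each group and the groups overlapped. ATF4 mKO muscle stood at 97.9% of control (95% interval 86.3% to 111%). Gsr encodes glutathione reductase, which returns oxidised glutathione to its reduced form with NADPH. It read 7.20, 7.42 and 7.23 in ATF4 mKO and 7.43, 7.34 and 7.21 in control muscles, again with overlap, and stood at 96.9% of control (95% interval 83.1% to 113%).

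Srxn1 encodes sulfiredoxin, which repairs over-oxidised peroxiredoxins, and part of its promoter is shown above. Its values were 6.77, 6.88 and 6.92 in ATF4 mKO and 6.70, 7.15 and 7.04 in control muscles. The controls were spread more widely, over 0.453 against 0.158 in ATF4 mKO, and control mouse 1 was the lowest of all 6. Srxn1 stood at 92.6% of control, with a 95% interval of 76.0% to 113%, the lowest bound of the 8 genes. Its log2 fold change of -0.11 became -0.24 without control mouse 1 (limma adjusted p = 1.0) and -0.016 without control mouse 2.

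Nqo1 encodes a quinone reductase that is widely used as a readout of NRF2 activity. It read 6.36, 6.08 and 6.45 in ATF4 mKO and 6.34, 6.08 and 6.45 in control muscles. Both groups had a low second mouse and covered nearly the same range, 0.371 in ATF4 mKO and 0.372 in controls. The means were 6.30 ± 0.19 and 6.29 ± 0.19 (SD, n = 3 each), and the log2 fold change of 0.0075 had the smallest size of the 8. Its spread was the widest of the 8, at percentile 81.2 of all features, so the interval still ran from 81.3% to 124% of control.

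Hmox1 encodes heme oxygenase 1, which breaks down heme, is strongly inducible and is abundant in macrophages. Its values were 6.07, 6.08 and 5.85 in ATF4 mKO and 6.07, 6.23 and 6.02 in control muscles. ATF4 mKO mouse 3 was the lowest and control mouse 2 the highest, and the other 4 mice lay close together. Hmox1 stood at 92.9% of control (95% interval 79.4% to 109%), and its log2 fold change of -0.11 became -0.031 without ATF4 mKO mouse 3 and -0.044 without control mouse 2. The summed signal of the 10 measured macrophage markers of 11 listed was 759 to 839 in ATF4 mKO and 704 to 830 in control muscles, with 4 of them below the median level, and its part in the Hmox1 values was not tested.

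Cat encodes catalase, the peroxisomal enzyme that splits hydrogen peroxide, and its spread between mice was the smallest of the downstream genes. It read 9.45, 9.52 and 9.45 in ATF4 mKO and 9.36, 9.41 and 9.49 in control muscles. The groups overlapped, and Cat stood at 103.8% of control with a 95% interval of 92.3% to 117%. Across the 8 genes the lower bounds ran from 76.0% to 92.3% of control and the upper bounds from 104% to 124%. These intervals are per gene and were not widened for the number of genes.

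**Figure D2:**
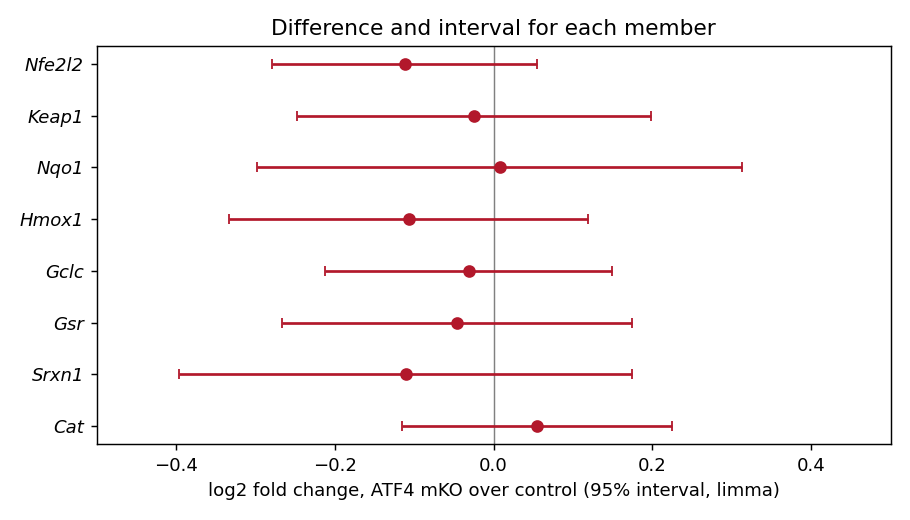
Log2 fold change of ATF4 mKO over control for each of the 8 genes, with the 95% interval from limma (3 mice per group) and a line at 0. Every interval includes 0; the estimates run from -0.11 for Nfe2l2 to 0.054 for Cat.

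The wider redox system was described with 8 lists holding 122 genes, of which 102 were measured, some in more than 1 list. None of the 102 passed the threshold (0.0119% of all features did); at an unadjusted p under 0.05 there was 1 lower gene, Gpx4, and 1 higher, Idh1, where 1.71% and 1.38% of all features were lower and higher. The median over the 102 genes was 0.0048, against 0.0013 over all features, with 49 genes below control and 53 above. Groups did not overlap for 2 genes in the lower and 7 in the higher direction, where all features gave 3.89% in each.

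Among 15 measured partners and regulators of NRF2, 8 were below and 7 above control, none passed and the median was -0.013. Cul3, the ligase scaffold that KEAP1 recruits, had a log2 fold change of -0.073 ± 0.096 (SE). Sesn1, a stress-induced sestrin, had -0.15 ± 0.20 (SE), and its ATF4 mKO values of 8.42, 9.02 and 8.22 enclosed all 3 control values of 8.84, 8.79 and 8.48. Nfe2l3, a relative of NRF2, had 0.12 ± 0.08 (SE), and Bach2, a repressor that competes for MAF partners, 0.12 ± 0.11 (SE). Control mouse 3 had the highest Bach2 value of the 6, and without it the log2 fold change was 0.25 (limma adjusted p = 0.939).

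Of 20 other measured NRF2 targets, 8 were below and 12 above control, with a median of 0.032, and none passed the threshold. Ephx1, an epoxide hydrolase gene, read 6.92, 6.90 and 6.89 in ATF4 mKO and 6.76, 6.78 and 6.80 in control muscles. These 6 values were tight and did not overlap, at 109% of control, but the adjusted p in limma was 0.9999 (0.596 without variance moderation, the lowest over its 13 alternatives). Abcc1, an exporter of glutathione conjugates, had 0.11 ± 0.07 (SE), Gsta3, a glutathione transferase, -0.18 ± 0.12 (SE), and Prdx1, a peroxiredoxin, -0.095 ± 0.079 (SE). Genes of the glutathione transferase family are close copies, and their features may share signal.

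In the 27 measured genes of glutathione synthesis, use and breakdown, 16 were below and 11 above control, the median was -0.017 and none passed. Gpx4, the peroxidase that removes lipid hydroperoxides, read 5.610, 5.600 and 5.099 in ATF4 mKO and 5.622, 6.206 and 5.928 in control muscles. The groups nearly met without overlapping, and the mean level of the feature was at percentile 43.7 of the array. It stood at 71.6% of control with an unadjusted limma p of 0.0321 and an adjusted p of 0.9999, and without ATF4 mKO mouse 3 its log2 fold change of -0.48 became -0.31. Chac1, which cleaves glutathione and is a known ATF4 target, read 8.29, 7.85 and 8.47 in ATF4 mKO and 8.72, 8.39 and 8.52 in control muscles. Its groups overlapped and it stood at 78.9% of control, with a 95% interval of 60.6% to 103%, and without ATF4 mKO mouse 2, the lowest of the 6, its log2 fold change of -0.34 became -0.17. Gstt2, a theta-class transferase, had 0.38 ± 0.16 (SE; 0.23 without ATF4 mKO mouse 1 and 0.25 without control mouse 3) and Mgst1, a microsomal transferase, -0.15 ± 0.09 (SE).

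The cystine and cysteine supply list is where ATF4 and NRF2 meet, and none of its 8 measured genes passed (5 below, 3 above, median -0.0070). Slc7a11, with both kinds of letters in the stretch above, read 4.176, 4.120 and 3.976 in ATF4 mKO and 4.015, 4.086 and 3.997 in control muscles. The groups overlapped at 104% of control (95% interval 91.4% to 119%), and the feature lay at percentile 8.65 of all features by mean level, near the floor of the array, where differences are compressed. Its partner subunit Slc3a2 had -0.094 ± 0.081 (SE). Slc1a1, a glutamate and cysteine transporter, had -0.063 ± 0.080 (SE), and Cdo1, which oxidises cysteine, -0.036 ± 0.14 (SE).

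The thioredoxin, peroxiredoxin and methionine sulfoxide reductase list had 7 of 13 genes below control and a median of -0.0039. Txn1, cytosolic thioredoxin, had -0.27 ± 0.27 (SE), with 5.04, 4.62 and 4.44 in ATF4 mKO and 5.61, 4.63 and 4.68 in control muscles. Its first mouse was the highest of each group, and without control mouse 1 the value turned to 0.047. The Txn1 feature lay at percentile 20.9 of all features by mean level and at percentile 98.4 by spread within groups. Txnrd3, a thioredoxin reductase of testis, had -0.079 ± 0.075 (SE), and Prdx4, a peroxiredoxin of the endoplasmic reticulum, 0.15 ± 0.14 (SE), with 0.053 without control mouse 1 and 0.32 without control mouse 2.

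In the NADPH list, which supplies the reducing power for glutathione and thioredoxin, 4 of 9 genes were below and 5 above control (median 0.013) and none passed. Idh1, cytosolic isocitrate dehydrogenase, read 8.26, 8.35 and 8.20 in ATF4 mKO and 8.18, 8.02 and 7.71 in control muscles. All 3 ATF4 mKO muscles lay above the controls, at 123% of control (limma adjusted p = 0.9999), and without control mouse 3 the log2 fold change of 0.30 became 0.17. Nnt, the mitochondrial transhydrogenase, had 0.24 ± 0.17 (SE; 0.043 without ATF4 mKO mouse 2), Idh2, the mitochondrial isocitrate dehydrogenase, 0.12 ± 0.11 (SE), and Tkt, transketolase, -0.069 ± 0.076 (SE). Heme and iron genes had a median of 0.049, with 4 of 10 below control and no call. Tfrc, the transferrin receptor, had 0.34 ± 0.18 (SE), which became 0.22 without ATF4 mKO mouse 2 and 0.19 without control mouse 3. That control was the lowest of the 6 for Tfrc, at 7.31, and also had the lowest sum of 3 erythroid markers, 159 against 247 to 283 in the other 5 mice, whose part in the Tfrc value was not tested. Alas1, the first enzyme of heme synthesis, had 0.096 ± 0.091 (SE), Fech, the last, 0.085 ± 0.074 (SE) and Slc48a1, a heme transporter, 0.088 ± 0.077 (SE).

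**Figure D3:**
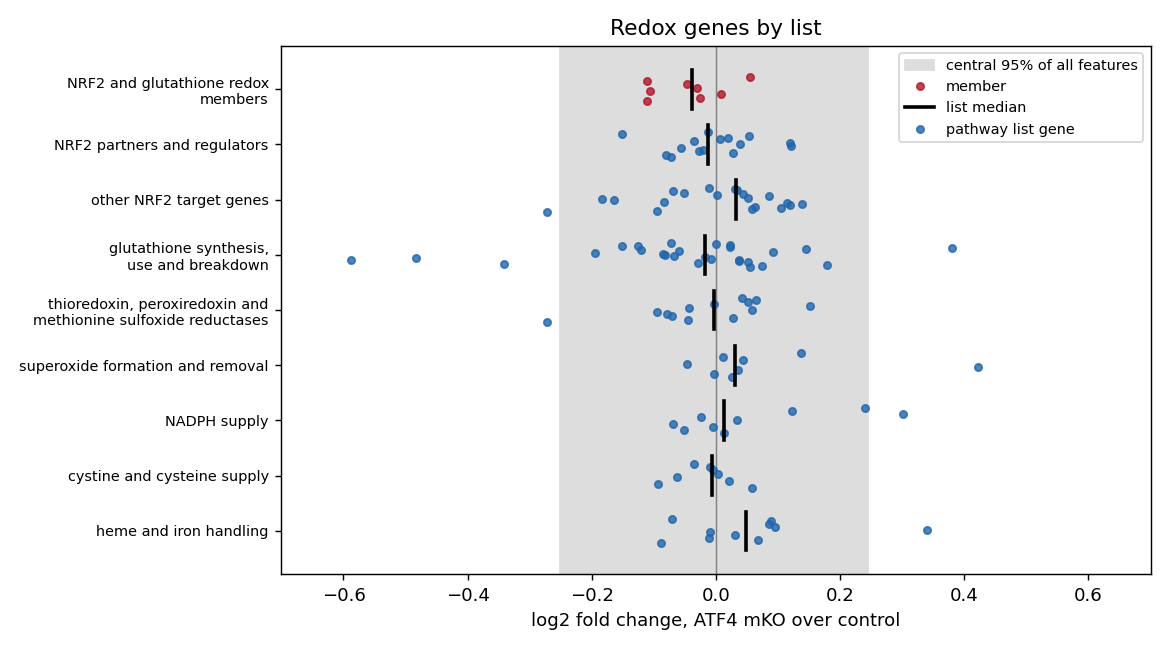
Log2 fold change of ATF4 mKO over control for the 8 redox genes (red) and the genes of 8 redox pathway lists (blue), 1 point per gene, with a black line at each list's median and a grey band over the central 95% of all features (-0.25 to 0.25). All 8 red points lie inside the band, and the list medians run from -0.039 to 0.049.

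Among genes that form or remove superoxide, 2 of 8 were below and 6 above control and the median was 0.031. Cybb, the catalytic subunit of the phagocyte oxidase, read 7.07, 6.86 and 6.45 in ATF4 mKO and 6.87, 6.85 and 5.39 in control muscles. Control mouse 3 was far below the other 5, and the log2 fold change of 0.42 ± 0.38 (SE) became -0.068 without it. The neutrophil marker S100a8 had the same low mouse, with 10.05, 10.14 and 9.52 in ATF4 mKO and 9.80, 9.89 and 6.80 in control muscles. Over the 5 measured of 6 listed neutrophil markers the summed signal was 2049 to 3104 in ATF4 mKO and 497 to 2721 in controls, and over 3 of 7 listed erythroid markers it was 252 to 283 and 159 to 275. S100a8 and S100a9, the brightest, made up most of each neutrophil sum. None of these 5 neutrophil features lay below the median level, and 1 of the 3 erythroid ones did. Their part in the Cybb value was not tested. Ccs, the copper chaperone of superoxide dismutase, had 0.035 ± 0.082 (SE), Ncf1, another oxidase subunit, 0.044 ± 0.10 (SE) and Xdh, xanthine dehydrogenase, 0.14 ± 0.14 (SE), which ran from 0.049 without control mouse 3 to 0.30 without control mouse 1.

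**Figure D4:**
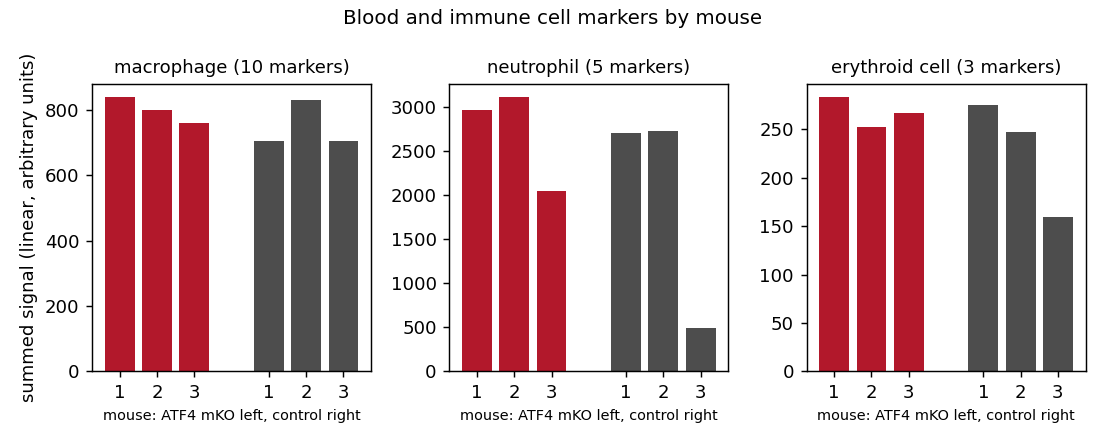
Summed linear signal of macrophage, neutrophil and erythroid markers in each mouse, ATF4 mKO in red on the left and control in grey on the right, with 1 bar per mouse. Control mouse 3 has a neutrophil sum of 497, where the other 5 mice have 2049 to 3104. S100a8 and S100a9 make up most of each neutrophil sum.

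The 8 redox genes were also read without control mouse 3, the mouse with the low neutrophil marker sum. None passed the threshold, Nfe2l2 stood at -0.10, Hmox1 at -0.15 and Nqo1 at 0.087, and the median of the 8 was -0.068 instead of -0.039. That median was -0.087 without ATF4 mKO mouse 2 and -0.0044 without control mouse 1. Leaving out 1 mouse moved the log2 fold change by over 1.5 times, or turned its sign, for 7 of the 8 genes, all but Nfe2l2, and for 28 of the 31 pathway list genes named above.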

How the data were processed

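The deposited table holds 1 log2 expression value per array feature and mouse. Per the submitters' processing notes, the authors used GCOS and RMA with build mm9; versions are not given in the sources used here. The log2 scale was read from the deposited values. RMA corrects background, quantile-normalises and summarises probes, so differences near the floor are compressed. The deposited columns were nevertheless not equal in distribution over their features. Medians ran from 5.84 to 5.91 and interquartile ranges from 1.73 to 1.88, and a further quantile normalisation therefore changed the values. Scanner files were not used here, and detection calls could not be made.

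Features were named from the platform annotation, with symbols updated through Entrez identifiers: 14996 of 16755 features had 1 symbol, and 14941 matched RefSeq (GRCm38.p6). Genes with several features were read from the brightest. The comparison was fitted over all features with limma 3.58.1 in R 4.3.3 (lmFit, eBayes, group as the only term), with Benjamini-Hochberg adjustment and a threshold of 0.05. Intervals are at 95%. Exact permutation tests used SciPy 1.17.1. The fit was tested on simulated data. The mice are separate animals, and their number limits the precision.

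The members and lists were chosen with earlier results of these data known. Named were all members, Atf4, up to 4 genes per pathway list with the smallest p, and the 3 genes most like Nfe2l2. S100a8 and the other neutrophil markers were named after their values were seen. The labels do not say that the mouse numbers pair animals, so the main fit did not use them. Same-numbered mice had correlations of -0.0021, 0.0687 and 0.136 between their deviations from the group means, against -0.118 to 0.0597 for differently numbered mice. These correlations do not decide whether the mice were paired. The alternatives were a replicate block, quantile normalisation, median centring, 2 filters on low features, 2 variance models and leaving out each mouse. No member had another feature to try.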

Additional observations from a re-analysis of the deposited data

How the results depend on the processing

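No member and no listed redox gene passed the threshold under any of the 13 alternatives, the replicate block included (0 members and 0 list genes with the block). The median of the 8 members ran from -0.0866 to -0.0044 without 1 mouse and from -0.0452 to -0.0385 under the other 7 alternatives. Of those 7, only quantile normalisation and median centring changed it. The 2 calls over all features became 1 with the replicate block and 1 with median centring. There were 5 calls once the dimmest 33.3% of features were dropped, 7 once the dimmer 50% were, 7 when moderation was robust and followed intensity, and 0 without variance moderation (limma); without each mouse the count was 1 to 1. The replicate block, the 2 filters on low features and the 2 variance models do not change a gene's log2 fold change, so they could not turn it. Members kept their direction in 98 of 104 refits. The 6 that turned were all refits without 1 mouse, over which Keap1 ran from -0.087 to 0.066, Nqo1 from -0.099 to 0.12, Gclc from -0.063 to 0.016 and Gsr from -0.11 to 0.0070. The 31 named pathway list genes turned in 6 of 391, again without 1 mouse: Ccs ran from -0.012 to 0.097, Cdo1 from -0.13 to 0.14, Cybb from -0.068 to 0.67, Ncf1 from -0.020 to 0.12, Sesn1 from -0.39 to 0.016 and Txn1 from -0.45 to 0.047. The gap between the groups of Nfe2l2, checked after seeing the data, was -0.014 with median centring and 0.0424 with quantile normalisation. Median centring shifts each array by a constant. The array medians were 5.8415 in ATF4 mKO mouse 2 and 5.857 in control mouse 2. That offset exceeds the 0.0015 between their Nfe2l2 values, so centring reversed the order of these mice. The cause of the change with quantile normalisation was not tested. Over the alternatives the lowest unadjusted p was 0.0371 among the members, for Srxn1 without control replicate 1, and 0.046 for Nfe2l2, without variance moderation.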

Other observations

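The Nqo1 values of same-numbered mice differed by 0.019, 0.0021 and 0.0010 (ATF4 mKO minus control, mouse 1, 2 and 3). This was noticed after the values were seen. All 3 differences were no larger than that at 29 of 16755 features, or 0.173%. The labels do not say that a number marks a shared litter, cage or day.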
